A study of Mus musculus with 6 samples.

Results

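The kinesin superfamily was examined in whole mouse testis after chemical inhibition of the RET kinase, in 3 mice given the inhibitor and 3 given vehicle. Members were all genes of the deposited table whose symbol begins with Kif followed by a digit, which leaves out the accessory protein Kifap3 and the Kifc genes. The rule found 38 genes among the 23361 in the table, and 37 of them had enough fragments to be tested. Of the 38, 37 were annotated as protein-coding in GENCODE M21, and Kif4-ps as a transcribed processed pseudogene. The family was brought forward by the low level of Kif26a in the inhibitor group of these same libraries, so the values of Kif26a below are a description and carry no test.

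Kinesins are motor proteins that use ATP to move along microtubules or to take their ends apart, and they share a conserved motor domain. In the testis they build and separate the spindles of dividing germ cells, carry building blocks into the growing sperm flagellum, and move organelles and RNA in germ cells and in the somatic cells around them. The kinesin-11 pair Kif26a and Kif26b is unusual, since their motor domains are known for binding microtubules without hydrolysing ATP and both proteins act in signalling. In the mouse gut, KIF26A binds the adaptor GRB2 and restrains signalling from glial cell line-derived neurotrophic factor (GDNF) through RET, and its loss gives an excess of enteric neurons.

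All 6 mice were of the C57BL/6J strain, about 120 days old and homozygous for Ret (V805A), a substitution in the kinase that lets the compound 1NaPP1-HCl block it. The inhibitor group received daily injections of 1NaPP1-HCl dissolved in vehicle for 9 days, and the control group received the vehicle of saline, cremophor and ethanol alone, each at 10 microliters per gram of body weight. Testes were taken on day 14, after 5 days of recovery, so the libraries describe the tissue after the inhibitor was withdrawn. Since the controls carry the same Ret substitution, the comparison is of the compound and not of the allele, and no mice with an unmodified Ret receptor given the compound were analysed here.

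Libraries of polyadenylated RNA, read as single ends of 81 nt, held 23144295 to 43127892 fragments assigned to genes. The library of inhibitor mouse 3 stood apart from the other inhibitor libraries: chi-square per degree of freedom was 12.1 and 13.1 in its pairs, against 4.94 for the other inhibitor pair and 4.23 to 6.05 among controls. Summed markers of round spermatids were at 134%, 133% and 100% of the control mean in inhibitor mice 1, 2 and 3, and between 95.5% and 103% in controls. Summed Sertoli cell markers were at 90.1%, 91.3% and 112% in the same inhibitor mice, and between 97.7% and 102% in controls. A single gene led each of these sums, Tnp1 with 52.1% of the round spermatid sum in controls and Clu with 76.3% of the Sertoli sum. Results are therefore also given without inhibitor mouse 3. Across all genes, edgeR called 26 of 16658 (0.156%) at an adjusted p under 0.05, with 10 higher and 16 lower in the inhibitor group. Scaling by library totals alone gave 4 higher and 23 lower.

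Levels between genes were compared in FPKM (fragments scaled by transcript length and library size), the length-scaled value deposited by the authors. Kinesin levels spanned a 1450-fold range of mean FPKM among the 37 tested genes. Their median was 9.68 FPKM, against 6.27 FPKM over all tested genes. The 7 genes above 50 FPKM, namely Kif2b, Kif9, Kif2c, Kif17, Kif27, Kif2a and Kif3b, made up 80.6% of the family's summed FPKM. At the other end, 4 genes averaged below 1 FPKM: Kif26a, Kif3c, Kif26b and Kif12.

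Kif2b, a kinesin-13 that takes apart microtubule ends at kinetochores, was the most abundant member. It had 341, 366 and 341 FPKM in inhibitor mice and 351, 330 and 353 FPKM in control mice, which is 28.8% of the family's FPKM and above 98.4% of all tested genes. The groups overlapped, and all 6 libraries lay above every library of the next gene. Its GENCODE gene span equals its 2244-base transcript, so it has no intron there. Kif2c, the kinesin-13 that corrects faulty kinetochore attachments, had 126, 136 and 131 FPKM in inhibitor mice and 122, 123 and 128 FPKM in controls, and the groups overlapped. Kif2a, the kinesin-13 that acts at spindle poles and in neurons, had 84.1, 85.0 and 88.2 FPKM in inhibitor mice and 83.4, 80 and 78.9 FPKM in controls. Every inhibitor library of Kif2a was above every control library, by a small margin. The kinesin-13 genes, with Kif24 as the fourth, together held 47.2% of the family's FPKM in inhibitor mice and 46.5% in controls.

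The ciliary and flagellar motors Kif9, Kif17 and Kif27 followed. Kif9, a motor of the central pair of microtubules in motile cilia and the sperm tail, had 134, 131 and 142 FPKM in inhibitor mice against 128, 130 and 130 FPKM in controls, and inhibitor libraries were all above the controls. Kif17, a kinesin-2 whose testis form carries the CREM coactivator ACT in mouse spermatids, had 115, 109 and 129 FPKM in inhibitor mice and 121, 127 and 125 FPKM in controls, with overlap. Kif27, a kinesin-4 relative of Kif7 linked to motile cilia, had 103, 103 and 108 FPKM in inhibitor mice and 104, 100 and 102 FPKM in controls, also with overlap. In the order of mean levels, the ranges of Kif9 and Kif2c across mice overlapped, as did those of Kif2c and Kif17. Within each library, Kif9 was above Kif17. Kif2b, Kif27, Kif2a, Kif3b, Kif20a and Kif3a were each separated from their neighbours in all 6 libraries. Below Kif3a most neighbours overlapped, and in all 14 of 37 neighbouring pairs were without overlap.

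**Figure D1:**
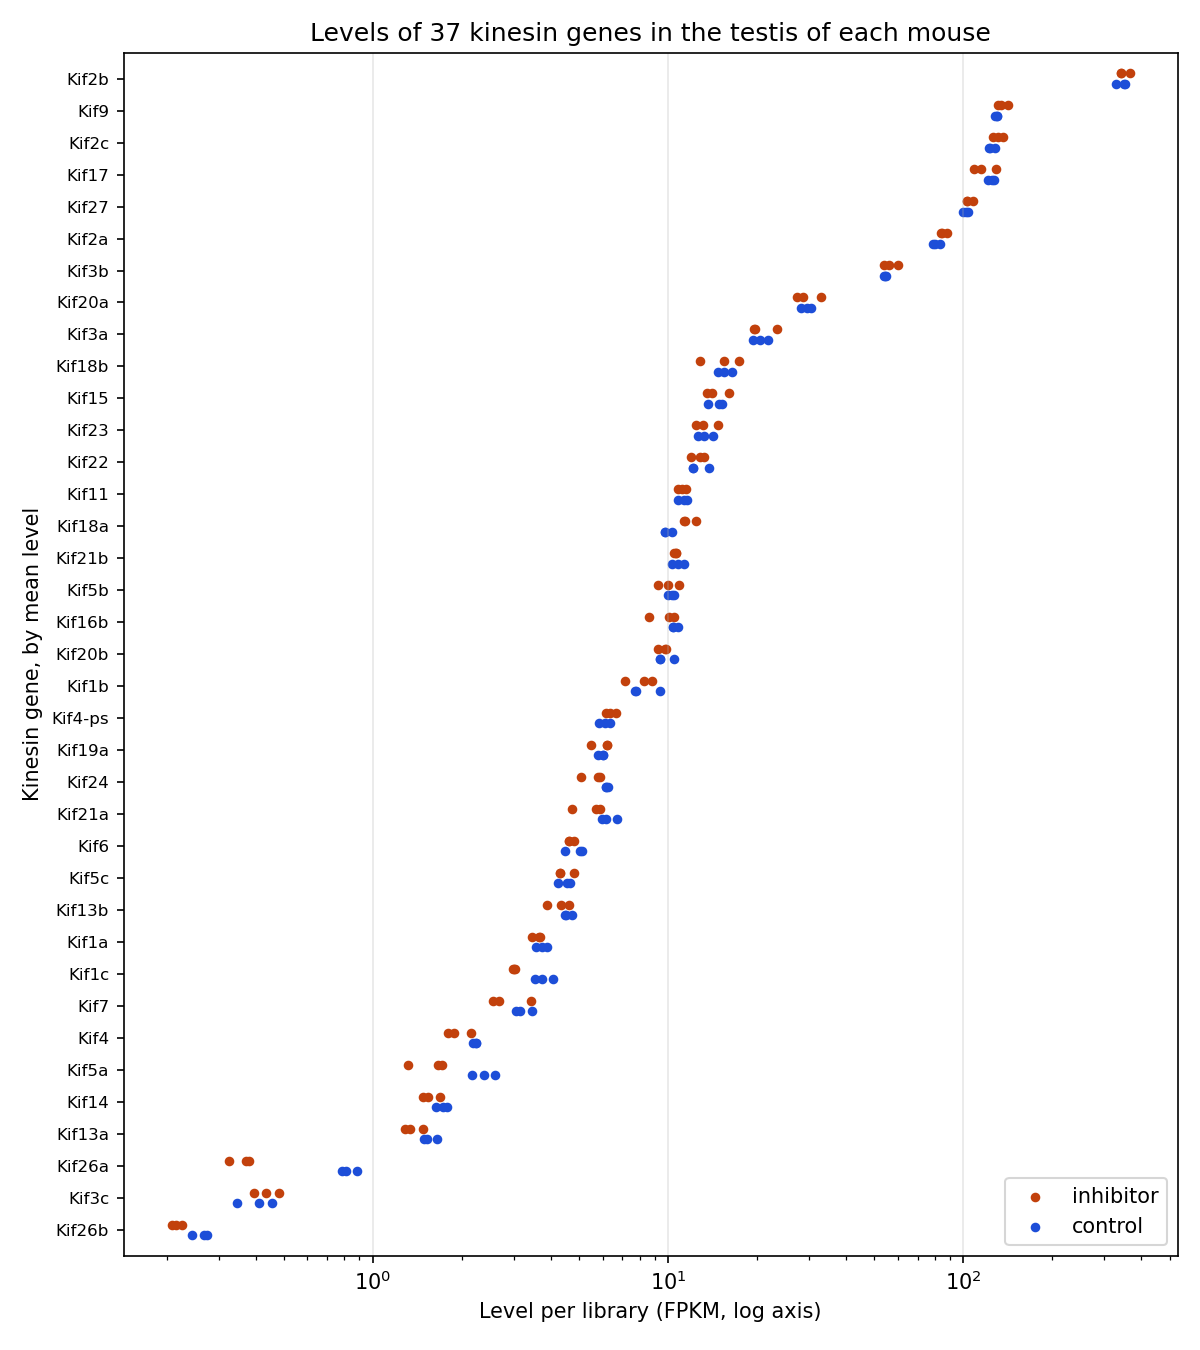
Deposited FPKM (horizontal log axis) of the 37 tested kinesin genes, ordered by mean level, with 1 point for each of the 3 inhibitor and 3 control mice. Kif2b stands alone near 350 FPKM, a group of 4 genes lies between 100 and 142 FPKM, and Kif26a is the gene whose inhibitor points sit farthest from its control points.

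Promoter sequence is shown for Kif2b, the most abundant member, and for Kif17, a motor with a testis form. The windows below are the 250 bases before the RefSeq start (GRCm38.p6), at chr11:91577556-91577805 on the minus strand for Kif2b and chr4:138262001-138262250 on the plus strand for Kif17. Capitals mark matches, on either strand, to the motifs searched, which are listed with their shares further on.
Kif2b: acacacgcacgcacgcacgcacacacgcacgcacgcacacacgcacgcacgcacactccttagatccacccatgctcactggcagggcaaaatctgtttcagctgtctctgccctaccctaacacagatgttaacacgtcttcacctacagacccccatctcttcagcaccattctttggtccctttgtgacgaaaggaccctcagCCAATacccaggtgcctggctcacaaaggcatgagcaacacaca
Kif17: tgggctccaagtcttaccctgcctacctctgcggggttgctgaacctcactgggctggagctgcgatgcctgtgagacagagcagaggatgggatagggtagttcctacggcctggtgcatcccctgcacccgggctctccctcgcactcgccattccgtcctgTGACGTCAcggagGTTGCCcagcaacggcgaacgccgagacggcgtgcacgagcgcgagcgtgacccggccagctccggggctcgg
The Kif2b window holds 1 match to CCAAT and begins with a low-complexity run of A and C letters with G between. The Kif17 window holds 1 match to the cyclic AMP response element TGACGTCA, the motif bound by CREB and CREM, and 1 match to GTTGCC. This RefSeq start lies 11816 bases inside the GENCODE gene, so it is an internal start. Both motif matches are descriptions of the letters, and binding was not measured.

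Kinesin-11 held the largest difference of the family. Kif26a (GENCODE chr12:112146208-112181747, plus strand) was read at 64, 58 and 74 fragments in inhibitor mice, against 138, 267 and 158 fragments in control mice. In CPM, which are fragments scaled to a common library size, these were 2.22, 2.54 and 2.59 in inhibitor mice and 5.53, 6.08 and 5.37 in controls. All 3 inhibitor mice were low, the controls lay close together, and the groups were well apart. The means were 2.45 ± 0.197 CPM in inhibitor mice and 5.66 ± 0.373 CPM in controls (SD, n = 3 each), a ratio of 0.432 and a log2 fold change of −1.21 (SE 0.14). In length-scaled terms the level was 0.358 ± 0.0295 FPKM in inhibitor mice and 0.827 ± 0.052 FPKM in controls, and its mean over all 6 mice was above only 13.4% of tested genes. Leaving out each mouse in turn kept the log2 fold change between −1.26 and −1.14, and it was −1.26 without inhibitor mouse 3. With the trend of fold change on transcript length and GC content removed it was −1.0, and the Kif26a transcript is long and GC-rich (6918 bases, 61.7% GC). In whole-tissue RNA, fewer cells of a type and less RNA per cell cannot be told apart, here and in every result that follows.

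The other kinesin-11, Kif26b, which acts in kidney development and Wnt5a signalling in the mouse, was scarcer still, at 38 to 79 fragments a library. It had 1.53, 1.66 and 1.57 CPM in inhibitor mice and 1.96, 1.8 and 2.01 CPM in controls. The groups did not overlap, but the log2 fold change of −0.27 had an SE of 0.18 and became −0.07 with the length and GC trend removed. The difference between the responses of Kif26a and Kif26b was not tested.

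The promoter windows of the kinesin-11 pair are shown in the same way so that the pair can be compared letter by letter. They lie at chr12:112145958-112146207 for Kif26a and chr1:178528875-178529124 for Kif26b, both on the plus strand and ending at the base before the GENCODE gene.
Kif26a: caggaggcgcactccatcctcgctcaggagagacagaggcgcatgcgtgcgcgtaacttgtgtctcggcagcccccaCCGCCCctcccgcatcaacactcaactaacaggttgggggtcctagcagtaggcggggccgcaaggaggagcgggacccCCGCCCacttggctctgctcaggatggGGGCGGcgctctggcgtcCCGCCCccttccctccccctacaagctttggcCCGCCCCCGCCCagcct
Kif26b: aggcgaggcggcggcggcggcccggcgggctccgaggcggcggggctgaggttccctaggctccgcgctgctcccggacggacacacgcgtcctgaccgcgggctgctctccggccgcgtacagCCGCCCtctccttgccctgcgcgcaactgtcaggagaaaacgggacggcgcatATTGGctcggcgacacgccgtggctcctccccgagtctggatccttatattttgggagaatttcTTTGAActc
Both windows are GC-rich, at 69.2% GC for Kif26a and 68.4% GC for Kif26b. The Kif26a window holds 6 matches to the GC box GGGCGG, read on either strand, and no match to the other motifs searched. The Kif26b window holds 1 match each to the GC box, to CCAAT and to TTTGAA.

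**Figure D2:**
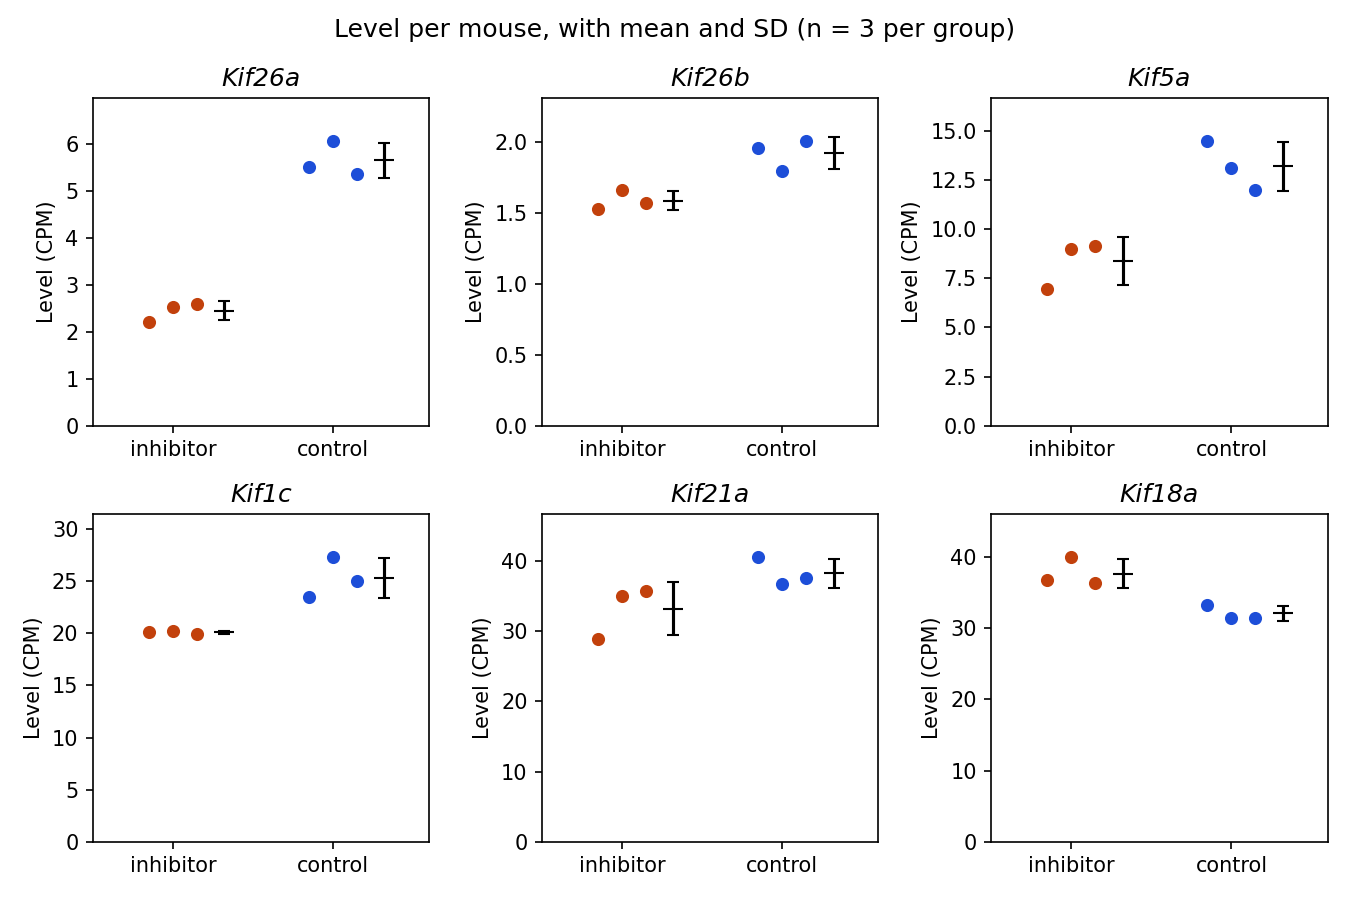
Level in CPM of individual kinesin genes in each mouse, with inhibitor mice to the left of control mice and the mean and SD of each group (n = 3). Kif26a inhibitor mice lie between 2.22 and 2.59 CPM, all under the lowest control at 5.37 CPM, while the other genes differ by smaller ratios.

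Transport kinesins carry vesicles, organelles and RNA. Of 12 tested, 11 had a log2 fold change below 0, beside 51% of all genes, with a median of −0.07, but the median was 0.02 with the length and GC trend removed. None passed the edgeR threshold, and 3 had an unadjusted p under 0.05, beside 17.9% of all genes. Kif5a, a heavy chain of conventional kinesin best known from neurons, had 6.95, 9.01 and 9.13 CPM in inhibitor mice and 14.5, 13.1 and 12 CPM in controls. Inhibitor mouse 1 was lowest, and no inhibitor library reached a control. The means were 8.37 ± 1.22 CPM in inhibitor mice and 13.2 ± 1.25 CPM in controls (SD, n = 3 each), with a log2 fold change of −0.65 (SE 0.12). That difference ranged from −0.73 to −0.53 when mice were left out and was −0.53 with the trend removed. The other heavy chains stood higher and closer together. Ubiquitous Kif5b averaged 10.0 FPKM in inhibitor mice and 10.3 FPKM in controls, and neuron-enriched Kif5c averaged 4.47 FPKM in inhibitor mice and 4.48 FPKM in controls. Kif5a averaged 1.56 FPKM in inhibitor mice and 2.38 FPKM in controls. Their log2 fold changes were −0.04 for Kif5b and −0.01 for Kif5c, each with an SE of 0.07.

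Kif1c, a kinesin-3 that moves vesicles and messenger RNA, had 20.1, 20.2 and 19.9 CPM in inhibitor mice and 23.5, 27.3 and 25.0 CPM in controls. Inhibitor mice were nearly identical and all below the controls, and the log2 fold change was −0.34 (SE 0.08). Leaving out mice moved it between −0.38 and −0.27, and removing the trend brought it to −0.19. Kif21a, a kinesin-4 that slows microtubule growth, had 28.9, 34.9 and 35.7 CPM in inhibitor mice and 40.5, 36.6 and 37.5 CPM in controls. Its groups were adjacent without overlap, with inhibitor mouse 1 low, and the log2 fold change was −0.20 (SE 0.08). All 7 kinesin-3 genes had a log2 fold change below 0, beside 51% of all genes, and only Kif1c had an unadjusted p under 0.05 in edgeR. The endosomal motor Kif16b was at −0.11 (SE 0.07) and the mannose 6-phosphate receptor carrier Kif13a at −0.19 (SE 0.10). The synaptic vesicle motor Kif1a was at −0.06 (SE 0.07). With the trend removed Kif1a, Kif1b and Kif13b were above 0, at 0.11, 0.11 and 0.07. The kinesin-3 median of −0.11 became −0.01 with the trend removed. Kif3c, a kinesin-2 partner of Kif3a in neurons, stood on the other side of 0 at 0.11 (SE 0.17).

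Mitotic and cytokinetic kinesins were near balance. Of 13 tested, 6 had a log2 fold change above 0 and 7 below, with a median of −0.00. Kif18a, a kinesin-8 that aligns chromosomes at the metaphase plate and is needed for germ cells in mice, had 36.7, 40.0 and 36.3 CPM in inhibitor mice and 33.3, 31.5 and 31.4 CPM in controls. All inhibitor mice were above all controls, at means of 37.7 ± 2.03 CPM in inhibitor mice and 32.1 ± 1.04 CPM in controls (SD, n = 3 each). The log2 fold change was 0.23 (SE 0.07), between 0.19 and 0.26 when mice were left out and 0.22 with the trend removed. Kif18a overlaps Mettl15 on the opposite strand, and the strand setting of the counting is not given, so fragments of the pair may not be separated.

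The remaining spindle motors were within 0.15 of 0 on the log2 scale apart from Kif4. Kif11, the motor that pushes spindle poles apart, differed by −0.01 (SE 0.06), and its backup Kif15 by −0.01 (SE 0.07). Cytokinesis motors of the kinesin-6 group were as close, with Kif20a at 0.01 (SE 0.07), Kif23 at 0.01 (SE 0.08) and Kif20b at −0.03 (SE 0.06). The chromosome-bound Kif22 differed by −0.00 (SE 0.08). Kif2b, Kif2c and Kif2a, whose levels are given above, differed by 0.02 (SE 0.05), 0.07 (SE 0.05) and 0.08 (SE 0.04) on the log2 scale. Kif4, a chromosome-bound motor that also organises the spindle midzone, had 8.27 to 9.83 CPM in inhibitor mice and 10.0 to 10.3 CPM in controls, a log2 fold change of −0.19 (SE 0.10). Its processed pseudogene Kif4-ps differed by 0.07 (SE 0.07) and had 3 times the FPKM of Kif4, at 6.24 and 2.08 over all mice. Both values are uncertain, because reads from near-identical copies may have been shared between them.

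Ciliary and flagellar kinesins were likewise split, with 5 of 9 above 0 and a median log2 fold change of 0.01. The kinesin-2 subunits that pull intraflagellar transport trains towards the tip had log2 fold changes of 0.02 (SE 0.07) for Kif3a and 0.06 (SE 0.05) for Kif3b. Kif3b was the more abundant of the pair, at 55.4 FPKM over all mice, against 20.7 FPKM for Kif3a. Kif9 differed by 0.07 (SE 0.04), Kif17 by −0.08 (SE 0.06) and Kif27 by 0.03 (SE 0.04) on the log2 scale. Kif24, which removes microtubules at the mother centriole and holds back cilia, had 31.7, 27.8 and 32.2 CPM in inhibitor mice and 34.3, 34.0 and 33.7 CPM in controls. Its inhibitor libraries all lay below tightly grouped controls, and the log2 fold change was −0.15 (SE 0.07), or −0.07 with the trend removed. Kif7, the regulator of Hedgehog signalling at the tip of the primary cilium, differed by −0.16 (SE 0.11) with overlapping groups, and by −0.30 without inhibitor mouse 3. Kif6 and Kif19a, motors of motile cilia, differed by −0.06 (SE 0.08) and 0.01 (SE 0.08).

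Kif12, a kinesin known from the kidney, was the single member not tested. It had 1 fragment in control mouse 1 and 0 in the other 5 libraries, and a count of 0 over the inhibitor group allows up to 0.037 CPM, for counting error only.

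**Figure D3:**
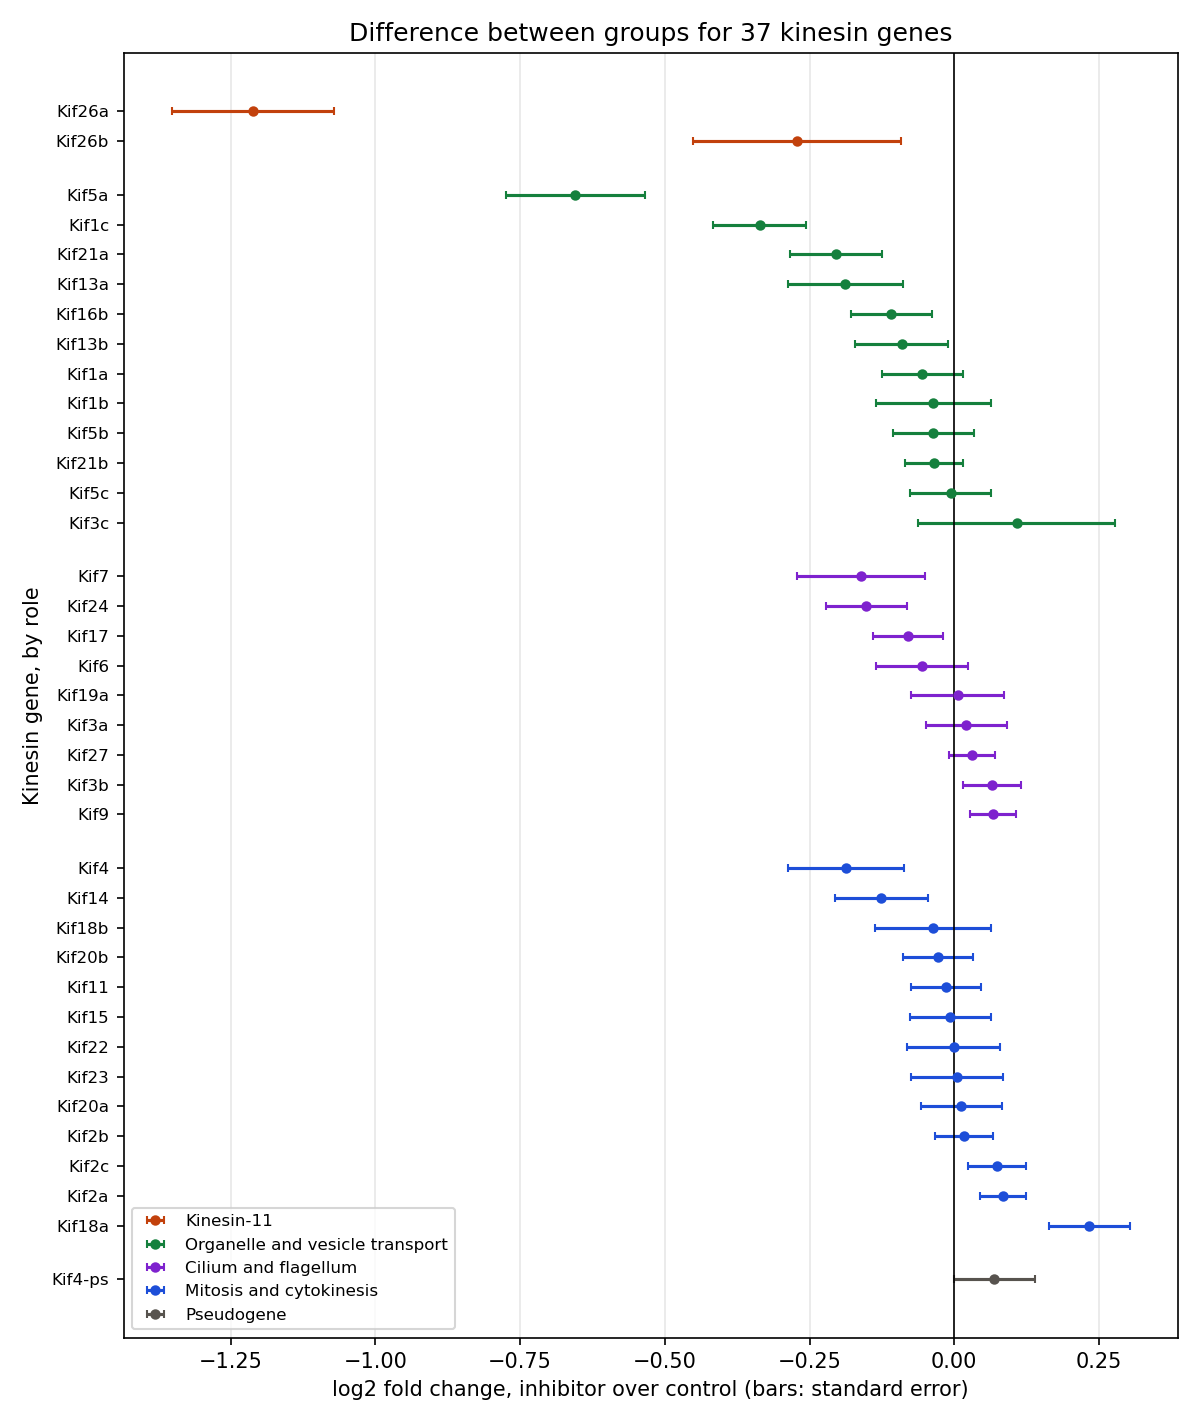
Log2 fold change of inhibitor over control mice with standard error (horizontal axis) for the 37 tested kinesin genes, grouped by role. Kif26a lies near −1.21 and Kif5a near −0.65, while 34 genes lie within 0.3 of 0.

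Over the whole family the groups differed little. Of the 37 tested genes, 34 had a log2 fold change within 0.3 of 0 and 24 within 0.1, and the summed level was 4030 to 4230 CPM in inhibitor mice and 4060 to 4090 CPM in controls. One member, Kif26a, was called by edgeR, beside 0.156% of all tested genes, and since Kif26a chose the family nothing is read from that count. Of the other 36, none was called, and 4 (11.1%) had an unadjusted p under 0.05, beside 17.9% of all genes: Kif5a, Kif1c, Kif18a and Kif21a. Of the 36, 3 passed that threshold and were lower in the inhibitor group, beside 8.48% of all tested genes that did both. The smallest edgeR adjusted p among the 36 was 0.060, for Kif5a. Groups did not overlap in 10 of the 36 (27.8%), beside 22.9% of all genes. Seen this way the other kinesins stood near the background of the table. The median log2 fold change of the 37 was −0.04, against −0.00 over all tested genes, and 24 of them (64.9%) were below 0, beside 51% of all genes. With the length and GC trend removed the family median was 0.01, as was that of all genes.

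Calls for single kinesins depended on the libraries and the test. Without inhibitor mouse 3, edgeR called 2405 of 16871 genes (14.3%) and 7 of 37 kinesins (18.9%). Kif18a was higher in the inhibitor group, and Kif26a, Kif5a, Kif1c, Kif21a, Kif17 and Kif7 were lower. These 7 include Kif26a, which chose the family, so nothing is read from the shares. The family median was −0.06 in those 5 libraries. No kinesin was called without inhibitor mouse 1, inhibitor mouse 2, control mouse 1 or control mouse 2, and in each of these cases edgeR called 0 genes in the whole table. Between 4 and 6 kinesins then had an unadjusted p under 0.05. DESeq2 called 538 of the 10844 genes to which it gave an adjusted p (4.96%), among them Kif5a at an adjusted p of 0.001 and Kif1c at 0.024, both lower in the inhibitor group. It gave Kif26a no adjusted p.

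**Figure D4:**
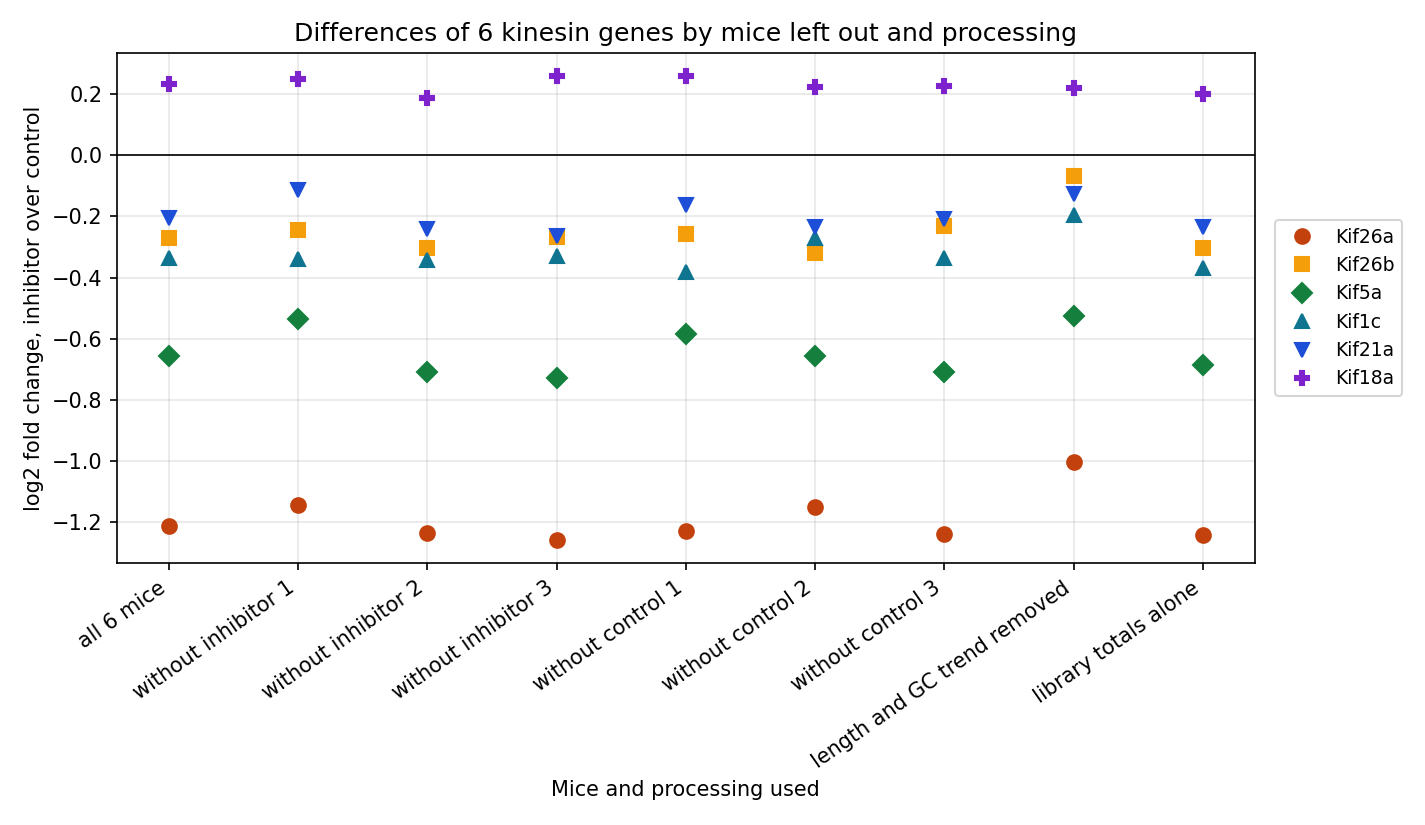
Log2 fold change of inhibitor over control (vertical axis) for 6 kinesin genes with all mice, with each mouse left out, with the length and GC trend removed, and with scaling by library totals alone. Kif26a stays between −1.26 and −1.0 and Kif18a between 0.19 and 0.26, whereas Kif26b and Kif1c lie closest to 0 with the trend removed.

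Partners of the kinesins were examined as lists. Among the minus-end-directed kinesin-14 motors and the kinetochore motor Cenpe, 5 genes in all, every log2 fold change was below 0, beside 51% of all genes, with a median of −0.16. With the length and GC trend removed 4 of the 5 were below 0, beside 48.1% of all genes, and the median was −0.05. None was called by edgeR or DESeq2, and 1 had an unadjusted p under 0.05, beside 17.9% of all genes. DESeq2 gave Kifc5b no adjusted p. Kifc5b had 4.10, 4.59 and 5.11 CPM in inhibitor mice and 6.53, 5.72 and 5.27 CPM in controls, and its log2 fold change of −0.34 (SE 0.14) had an adjusted p of 0.231. Kifc1, a spindle motor of nearly the same sequence, was at −0.19 (SE 0.12), so reads may have been split between the pair. Of 14 light chains, adaptors and cargo receptors, 6 were above 0 and 8 below, and with the trend removed 4 were below. None was called by edgeR or DESeq2, and 4 had an unadjusted p under 0.05, a threshold passed by 17.9% of all genes. The lysosomal cargo GTPase gene Arl8b was at 0.17 (adjusted p = 0.108), the mitochondrial adaptor gene Trak2 at −0.32 (adjusted p = 0.123) and the light chain gene Klc1 at −0.25 (adjusted p = 0.229), all from edgeR.

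Intraflagellar transport genes, the cargo of Kif3a and Kif3b, were 8 above 0 and 10 below, with a median log2 fold change of −0.02 and none called by edgeR among 18, where 3 had an unadjusted p under 0.05, beside 17.9% of all genes. With the trend removed 6 of the 18 were below 0. Ift74 had the smallest p of that list, at 0.21 (SE 0.06, edgeR adjusted p = 0.106), and it was 0.08 with the length and GC trend removed. DESeq2 called Ift74 alone of the partner genes, at an adjusted p of 0.038, but it gave Ret no adjusted p. Of 14 spindle midzone and chromosome partners of the mitotic kinesins, 8 were above 0. None was called by edgeR or DESeq2, and 5 had an unadjusted p under 0.05, beside 17.9% of all genes. Birc5, the chromosomal passenger gene that encodes survivin, was at 0.20 (SE 0.06, edgeR adjusted p = 0.130), with 46.7 to 51.5 CPM in inhibitor mice and 41.9 to 43.4 CPM in controls. The groups of Birc5 did not overlap.

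The GDNF pathway in which KIF26A is known to act was lower for Ret itself. Ret had 0.487, 0.656 and 0.595 CPM in inhibitor mice and 2.28, 2.39 and 1.84 CPM in controls. All inhibitor mice were far below all controls, and the difference was −1.91 on the log2 scale (SE 0.23) with an adjusted p of 0.020 in edgeR. Of 14 tested genes of receptor-proximal GDNF signalling, 13 were below 0, beside 51% of all genes, with a median of −0.10, and Ret alone was called. With the length and GC trend removed 9 of the 14 were below 0, beside 48.1% of all genes, and the median was −0.02. Gfra1, the GDNF co-receptor gene, was at −0.28 (SE 0.15, adjusted p = 0.366) and Gab1, which encodes a docking protein, at −0.18 (SE 0.07, adjusted p = 0.237) by edgeR. The ligand gene Gdnf was at 0.11 (SE 0.21, edgeR adjusted p = 0.827).

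Undifferentiated spermatogonia are the cells that respond to GDNF in the testis, and some of their markers were low beside Kif26a. Of 12 tested markers of 15 listed, 10 had a log2 fold change below 0, beside 51% of all genes, and 8 had inhibitor libraries all below the controls, beside 11.9% of all genes. The markers called by edgeR were 3 of the 12, Sox3, Zbtb16 and Lin28a, beside 0.156% of all genes. Like the partner lists and the other marker lists, this list was chosen with earlier results of these data known. Its counts are therefore only a description. DESeq2 gave an adjusted p to only Foxo1 (0.015) and Taf4b (0.326) of this list. It called Foxo1, beside 4.96% of the genes to which it gave an adjusted p. The other tested markers, among them Sox3, Zbtb16, Lin28a and Sall4, got no adjusted p from DESeq2. The germ cell genes Pou5f1 and Utf1 were above 0, at 0.17 (SE 0.15) and 0.11 (SE 0.27), and neither was called by edgeR.

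Set against the control mean, Kif26a stood at 39.3%, 44.8% and 45.7% in inhibitor mice 1, 2 and 3, and Ret at 22.4%, 30.2% and 27.4%. The marker Sox3 stood at 23.9%, 39.3% and 43.5% in the same mice, Lin28a at 35.5%, 60.4% and 41.7%, and Zbtb16 at 45.4%, 50.8% and 55.1%. Kif26a lay within the range of these called markers, but both it and they were picked for their fall in these same libraries. Their closeness is therefore only a description. Over the 12 markers the ratio of inhibitor to control means ran between 31.7% for Sall4 and 113% for Pou5f1, with a median of 65.6%. Their summed level was 47.9 to 53.3 CPM in inhibitor mice and 67.2 to 73.5 CPM in controls, which is 68.1% to 75.7% of the control mean. Taf4b and Foxo1 made up 55.9% of the control sum. The part of these markers in the level of Kif26a was not tested. The 3 untested markers, Nanos2, Upp1 and Neurog3, had 0 to 20 fragments a library, and none of the 15 was at 0 in all libraries.

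Several other marker lists also lay mostly below 0, with none of their genes called by edgeR. Of 9 markers of differentiating spermatogonia 8 were below 0, beside 51% of all genes, with a median log2 fold change of −0.25. In 6 of the 9 the inhibitor libraries were all below the controls, beside 11.9% of all genes. DESeq2 called Dnmt3b and Dmrt1, beside 4.96% of the genes to which it gave an adjusted p, and gave Crabp1 and Sohlh1 none. The 9 markers summed to 733 to 778 CPM in inhibitor mice and 735 to 745 CPM in controls. Dmrtb1, the single marker above 0, made up 70.0% of that sum in controls. All 6 peritubular myoid markers were below 0 (median −0.23), beside 51% of all genes. Their sums were 134, 133 and 147 CPM in inhibitor mice 1, 2 and 3, and 149, 198 and 140 CPM in control mice 1, 2 and 3. Control mouse 2 stood well above the other controls, and the groups overlapped. All 6 endothelial markers were below 0 as well (median −0.17), beside the same 51%. Their sums were 33.6 to 43.2 CPM in inhibitor mice and 42.0 to 44.9 CPM in controls. Glial and neuronal markers, considered because Kif26a and Kif5a are known from the nervous system, were 4 above 0 and 3 below over 7 tested genes of 8. They summed to 90.0 to 99.2 CPM in inhibitor mice and 92.6 to 102 CPM in controls. The median ratio of inhibitor to control means was 96.3% over 11 Sertoli markers and 93.8% over 8 Leydig markers. For 5 macrophage markers it was 99.0%. Summed, the 5 stood at 422 to 454 CPM in inhibitor mice and 381 to 387 CPM in controls. Aif1 made up 83.1% of that sum in controls. DESeq2 called Aif1 of the macrophage list and Cst12 of the Sertoli list, both higher in the inhibitor group, beside 4.96% of all genes. The part of these cells in the levels of the lower kinesins was not tested.

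Meiotic and later markers lay mostly on the other side of 0. Of 10 spermatocyte markers 8 were above 0, where 51% of all genes were below 0. They summed to 8540 to 8730 CPM in inhibitor mice and 7910 to 8230 CPM in controls. With the length and GC trend removed, 5 of the 10 were below 0. Of 10 elongating spermatid markers 9 were above 0, beside the same share of all genes. They summed to 21500 to 21900 CPM in inhibitor mice and 19600 to 20400 CPM in controls. Both sums were higher in every inhibitor mouse than in any control, as were the single levels of Kif18a, Kif9 and Kif2a. The groups overlapped for the abundant Kif2b, Kif2c, Kif17, Kif27 and Kif3b, and 22.9% of all genes were without overlap in either direction. The part of these cells in the kinesin levels was not tested. Round spermatid markers summed to 4680, 4640 and 3500 CPM in inhibitor mice 1, 2 and 3, against 3330 to 3600 CPM in controls. No marker of these lists was called by edgeR. DESeq2 called 3 spermatocyte markers (Tbpl1, Adam2 and Pgk2), 3 elongating spermatid markers (Akap4, Cabs1 and Prm2) and 1 round spermatid marker (Zpbp2). All were higher in the inhibitor group, beside 4.96% called among all genes to which DESeq2 gave an adjusted p.

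**Figure D5:**
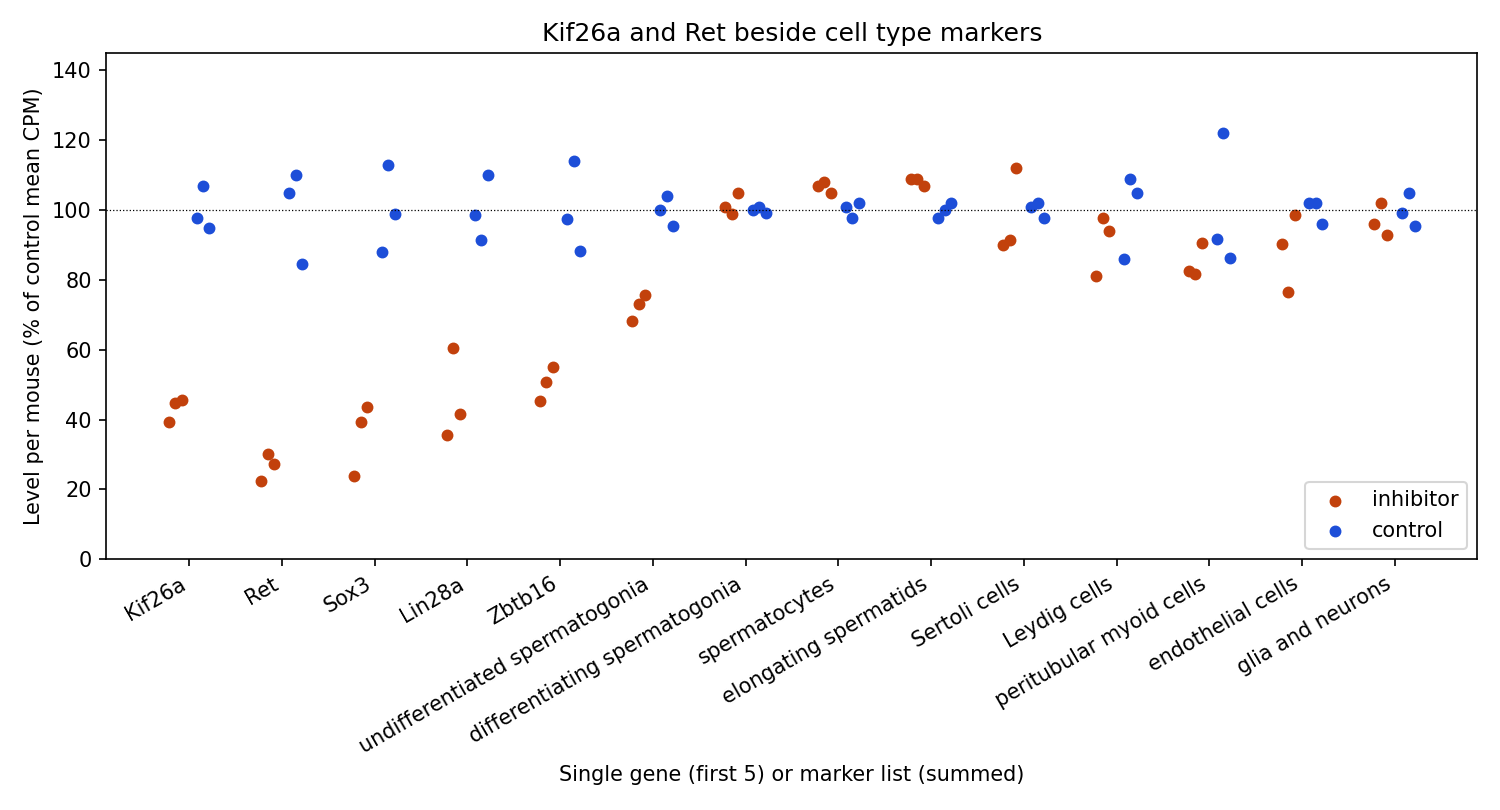
Level per mouse as a percentage of the control mean CPM (vertical axis) for the single genes Kif26a, Ret, Sox3, Lin28a and Zbtb16 and for summed marker lists, inhibitor mice left of control mice. Kif26a lies at 39.3% to 45.7% in inhibitor mice, among the called markers, which like it were picked for their fall in these libraries. The summed undifferentiated list, led by Taf4b and Foxo1, lies at 68.1% to 75.7%. The round spermatid and macrophage lists are not shown.

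Promoters of the family were compared by motif. RefSeq promoter sequences were at hand for 31 of the 38 genes, and each motif was searched on both strands of the 250 bases before the start. The GC box GGGCGG was in 19 of 31 kinesin genes, beside 32.7% of all 32851 promoters. The CCAAT box was in 14 kinesin genes, beside 33.8% of all promoters. By role, CCAAT was in 7 of 12 mitotic and 5 of 8 ciliary genes, and in 1 of 9 transport genes. The letters TTTGAA of the cell cycle homology region, known from genes expressed late in the cell cycle, were in 5 of 12 mitotic kinesins (Kif11, Kif14, Kif15, Kif22 and Kif2c) and in 8 of all 31, beside 16% of all promoters. The X-box half-site GTTGCC, known from ciliary genes bound by RFX factors, was in 4 of 8 ciliary kinesins (Kif17, Kif24, Kif3a and Kif9) and in 8 of all 31, beside 10.4% of all promoters. TGACGTCA was in Kif17 and Kif5c, beside 1.5% of all promoters, TATAAA in 4 genes beside 12.4%, and the E-box CACGTG in Kif1a beside 6.0%. Some genes have more than 1 start in the table, so the gene counts and the promoter shares have different denominators, and a match is not evidence of binding.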

How the data were processed

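Polyadenylated RNA from whole testes of 6 mice was sequenced, 3 mice per group, with directional libraries per the labels' protocols. Per the submitters' processing notes, cutadapt 1.8, TopHat2 2.0.13 and Cuffdiff 2.2.1 were used with genome build mm10. The labels used here name neither the gene annotation nor the strand setting of the counting. The authors deposited expected counts (fragments per gene, before scaling by library size) and FPKM. Within a tolerance of 1e-06, 98.8% of the 140166 fragment values were whole; all were rounded. No kinesin value carried a failed status.

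From these, edgeR 4.0.16 in R 4.3.3 was run over all 16658 genes left by filterByExpr, using TMM scaling and a two-sided quasi-likelihood F-test (robust option), with Benjamini-Hochberg adjustment and a threshold of 0.05. SE is that of the log2 fold change, inhibitor over control. Groups came from the labels, which do not say whether mice with the same number share a litter or day. Alternatives were DESeq2 1.42.0, limma 3.58.1 (voom, and log2 of FPKM plus 1 or 0.1), other scalings and filters, the replicate number as a block, removal of a loess trend (span 0.5) on transcript length and GC content of the longest GENCODE M21 transcript, and each mouse left out. The procedure was tested on simulated data. The common biological coefficient of variation was 8.02%, and 1 CPM stands for 23.1 to 43.1 fragments.

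The kinesin members, partner lists and markers were chosen with earlier results of these data known. Every member could be named. Values in every library are given for Kif26a, Kif26b, the 6 members of highest mean FPKM, the 6 of smallest p other than Kif26a, and members without overlap and with an absolute log2 fold change of at least 0.3. Up to 3 genes of smallest p were named from each partner list, plus Ret, Gfra1 and Gdnf.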

Additional observations from a re-analysis of the deposited data

How the results depend on the processing

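Across 17 alternatives, 607 of 628 recomputed kinesin log2 fold changes moved by less than 1 SD between replicates, and 21, in 15 genes, moved by more. Removal of the length and GC trend accounts for 14 of these, the FPKM scales for 6 and library totals for 1; the cause was not tested. The family median stayed between −0.07 and 0.01. For all genes, the count of 26 called became 115 with no filter on low counts, 10 with at least 50 counts in 3 libraries, 538 by DESeq2 (which gave 5814 genes no adjusted p), 2 by limma-voom, 0 on log2(FPKM + 1), 1 on log2(FPKM + 0.1), and 13 with the trend removed. For kinesins, the count of 1 became 2 with no filter (Kif26a and Kif5a), beside 0.559% of all genes. It became 2 by DESeq2, beside 4.96%, and 0 on both FPKM scales, where 4 had an unadjusted p under 0.05. Kif26a chose the family, so nothing is read from its calls under any setting. On the log2(FPKM + 1) scale the fold change of Kif26a was −0.43, since the pseudocount understates the change of low genes. For partner genes, the count of 1 (Ret) became 0 by limma-voom and on both FPKM scales. The 1 called by DESeq2 was Ift74, and DESeq2 gave Ret no adjusted p. Leaving out each mouse gave 0 to 2405 genes, 0 to 7 kinesins and 0 to 7 partner genes; the highest values were without inhibitor mouse 3. With the replicate number as a block, 5 genes (0.03%) were called, and Kif26a was the 1 kinesin among them. Deviations of same-numbered mice correlated at 0.062, −0.116 and −0.02 over 13734 genes, so the numbers were not taken to pair the mice.

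Precision is limited by 3 mice per group and, for Kif26a, Kif26b and Kif3c, by fewer than 300 fragments a library. Medians of the replicate coefficient of variation over kinesins were 7.11% in inhibitor mice and 4.7% in controls. The 6 kinesins that overlap another tabulated gene on the opposite strand are Kif18a, Kif20a, Kif2a, Kif3c, Kif4 and Kif7.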
